A study of Mus musculus with 16 samples.

Results

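The genes described here are 7 non-classical MHC class I genes, also called class Ib genes: H2-T23, H2-T22, H2-Q4, H2-Q6, H2-Q7, H2-M3 and H2-M2. They were taken by symbol, as those 7 of the 32285 genes listed in every count matrix, and each symbol held 1 row in each of the 8 matrices. The list was drawn up with earlier results of these data known. Counts of called members set beside the share of all genes are therefore a description. Single-cell RNA sequencing had been run on immune cells from subcutaneous B16 melanomas, and the question followed was how strongly each of these genes was transcribed in each kind of cell under the 4 conditions of the study. C57BL/6J mice were injected under the skin with 1000000 cells of the Bro4.1 B16 line that were either B2m-null or control. B2m encodes beta-2-microglobulin, the light chain of MHC class I. Each mouse then received 100 µg of an anti-CD40 antibody or of a rat IgG2a isotype antibody by intraperitoneal injection on days 6, 9 and 12, and tumours were taken on day 14. CD40 is a receptor on dendritic cells, macrophages and B cells that is normally engaged by CD40 ligand on T cells.

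There were 5 mice in the control isotype group, 2 in the control CD40 group, 5 in the B2m-null isotype group and 4 in the B2m-null CD40 group, told apart by hashtag antibodies. A mouse here is a hashtag found in the files: the labels name 3 hashtags for every pool, but the files of 2 lanes held 3 and those of the other 6 lanes held 2. In 1 lane, B2m-null isotype replicate 1, no more than 47.6% of barcodes could be assigned to a mouse. The numbers of mice, and the tests over mice, rest on this assignment. The first name gives the implanted tumour cells and the second the antibody. The genotype in the sample labels reads as the genotype of the host, but the series' design text puts the loss of B2m in the implanted cells, and the latter was followed. Age is not given in the sources used here. Tumours were digested with collagenase and DNase and CD45+ cells were selected on magnetic beads, so the data describe leukocytes of the tumour, with few tumour cells. Mice of a pool shared a lane, and each of the isotype groups and the B2m-null CD40 group had 2 pools. The 2 lanes of the control CD40 group were technical replicates of 1 pool, so an effect of that pool cannot be told apart from the effect of the group. Nothing in the labels ties a lane to a day.

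MHC class I molecules are heavy chains that pair with beta-2-microglobulin. The classical molecules of this strain, H2-K and H2-D, show peptides from inside the cell to CD8 T cells. Class Ib heavy chains resemble them but vary little between individuals and often have narrower ligands. H2-T23 encodes Qa-1, which carries a leader peptide of classical class I molecules and is read by the receptor pair CD94 (Klrd1) and NKG2A (Klrc1) on NK and T cells. H2-Q6 and H2-Q7 encode Qa-2, a molecule that can be anchored in the membrane by a lipid. H2-T22 is recognised directly by a subset of gamma-delta T cells, and H2-M3 presents peptides with an N-formyl group, a mark of bacterial and mitochondrial proteins. H2-Q4 and H2-M2 are further class Ib genes of the Q and M regions. Transcription of class I genes is induced by interferons and NF-kappaB.

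All 7 genes lie on mouse chromosome 17 and are annotated as protein coding. In build GRCm38, H2-Q4 lies at chr17:35379617-35385290, H2-Q6 at chr17:35424850-35430055 and H2-Q7 at chr17:35439155-35443773, all on the plus strand. H2-T23 lies at chr17:36029773-36032855 and H2-T22 at chr17:36037128-36042747, both on the minus strand. H2-M3 lies at chr17:37270220-37274484 on the plus strand and H2-M2 at chr17:37480851-37483552 on the minus strand. The promoter stretches below are shown because class I genes share promoter elements and the members often changed together in the comparisons that follow. Whether the elements have a part in those changes was not tested. They come from RefSeq on build GRCm38.p6, which held all 7 genes, and are written 5′ to 3′ on the strand of the gene, with capitals marking matches to the strings searched.
H2-T23 (chr17:36032806-36032835, minus strand): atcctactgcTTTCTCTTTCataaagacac
H2-T22 (chr17:36042873-36042940, minus strand): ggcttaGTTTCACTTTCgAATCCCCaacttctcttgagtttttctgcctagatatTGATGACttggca
H2-Q4 (chr17:35379437-35379522, plus strand): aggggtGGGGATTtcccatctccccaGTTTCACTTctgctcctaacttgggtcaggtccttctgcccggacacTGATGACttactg
H2-Q6 (chr17:35424671-35424756, plus strand): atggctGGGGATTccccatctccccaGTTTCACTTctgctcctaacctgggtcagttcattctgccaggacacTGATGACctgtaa
H2-Q7 (chr17:35439016-35439100, plus strand): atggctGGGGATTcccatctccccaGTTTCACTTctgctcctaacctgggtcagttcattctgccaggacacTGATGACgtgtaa
H2-M3 (chr17:37270126-37270197, plus strand): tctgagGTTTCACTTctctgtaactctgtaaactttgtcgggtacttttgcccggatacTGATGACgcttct
H2-M2 (chr17:37483639-37483703, minus strand): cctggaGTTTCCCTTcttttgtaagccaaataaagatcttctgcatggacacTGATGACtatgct
The strings were searched on both strands in the 250 bases before and 50 bases after each RefSeq start. They were GGGGATT, the core of a kappaB-type element, GTTTCNNTT and a second string (TTTC, any 2 bases, TTTC), forms of the interferon-stimulated response element that can overlap, and TGATGAC, the core of a cyclic-AMP-response type element. They were chosen after these sequences had been read, so the matches are a description. H2-Q4, H2-Q6, H2-Q7, H2-T22, H2-M3 and H2-M2, which are 6 of the 7, held both GTTTCNNTT and TGATGAC, a combination present in 0.253% of 32851 promoters of the same length. GGGGATT was also present in H2-Q4, H2-Q6, H2-Q7 and H2-T22. The match in H2-T22 was on the minus strand. H2-Q6 held a second match on the minus strand, at position 11 from the start, outside the stretch shown. Singly, GGGGATT was found in 3.1%, GTTTCNNTT in 5.77%, the second string in 3.44% and TGATGAC in 3.23% of all promoters. The window of H2-T23 held the second string alone. The start of H2-T23 in the GENCODE annotation lies further upstream than its RefSeq start, so its RefSeq window is not the region before the longest annotated transcript.

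The members are paralogs, and reads from a shared stretch may be dropped or given to the wrong copy. The library chemistry reads the 3′ end of a transcript, so the last 500 bases of each gene were compared with all other annotated transcripts in windows of 60 bases. Another gene held 51.2% of these windows for H2-T22, among them H2-T10, and 38.0% for H2-Q6, among them H2-Q7. The shares were 30.2% for H2-T23, 24.7% for H2-Q4, 9.86% for H2-Q7, 0.175% for H2-M2 and 0 for H2-M3. Values for H2-T22 and H2-Q6 are therefore the least certain as values of a single gene. Levels are not compared between genes.

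The 8 lanes held 116552 barcodes with 45985739 to 99264875 UMIs per lane, and the median barcode of a lane had 1715 to 4225 UMIs. A UMI (unique molecular identifier) marks 1 captured transcript molecule. After hashtag assignment and filters, 76894 cells of 16 mice remained, of which 49989 (65.01%) fell into 1 of 17 classes gated on marker genes that include no member. A class name stands for the cells that passed its gate. Between 41 and 92 barcodes were shared by each pair of lanes. In cells that passed the melanoma gate, taken here with or without a hashtag (93 to 391 per group), B2m was at 1219 and 1856 CPM (counts scaled to a total of 1000000) in control tumours under isotype and under CD40. In B2m-null tumours it was at 165 and 365 CPM, which goes with the labels, and 86.4 to 98.2% of these cells held a UMI of it in each group. Counts were summed per mouse and class for mice with at least 20 cells of the class, and levels are CPM of those sums. Sums for macrophages came from 5692 to 7378 cells per group, those for monocytes from 310 to 1832 and those for CD8 T cells from 611 to 5448.

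Among the cell classes found in at least 6 mice, H2-Q6 and H2-Q7 were highest in NK cells, and macrophages held the lowest level of the leukocytes compared. Averaged over the mice with the class, H2-Q7 was at 997 CPM in NK cells, 869 in CD8 T cells, 259 in monocytes, 165 in macrophages and 9.80 in melanoma cells. H2-Q6 followed the same course, from 328 CPM in NK cells to 30.3 in macrophages and 2.84 in melanoma cells. H2-T22 and H2-Q4 spanned a narrower range among leukocytes. H2-T22 ran from 219 CPM in conventional CD4 T cells to 75.1 in type 1 conventional dendritic cells (cDC1), and H2-Q4 from 83.6 in NK cells to 22.7 in cDC1.

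H2-T23 stood out in plasmacytoid dendritic cells (pDC), the class known for secreting type I interferon. It was at 913 CPM there and at 479 CPM in monocytes, the next class. Every other leukocyte class compared lay between 321 CPM in macrophages and 466 CPM in mature dendritic cells. H2-M3 was the most even of the members among leukocytes, from 108 CPM in pDC to 58.7 in NK cells. H2-M2 had the most uneven distribution, with 39.5 CPM in mature dendritic cells, 19.4 in macrophages and 0 counts in cDC1, pDC and melanoma cells. The mature dendritic mean includes 1 CD40 mouse at 134 CPM, from 11 counts. Neutrophils of the B2m-null CD40 group averaged 38.1 CPM of H2-M2, from 16 counts and with 0 to 125 CPM by mouse, against 36.9 in macrophages of that group. In melanoma cells the levels of the 6 other members were below those of every leukocyte class compared, at 8.78 CPM for H2-M3 and 38.3 CPM for H2-T23.

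**Figure D1:**
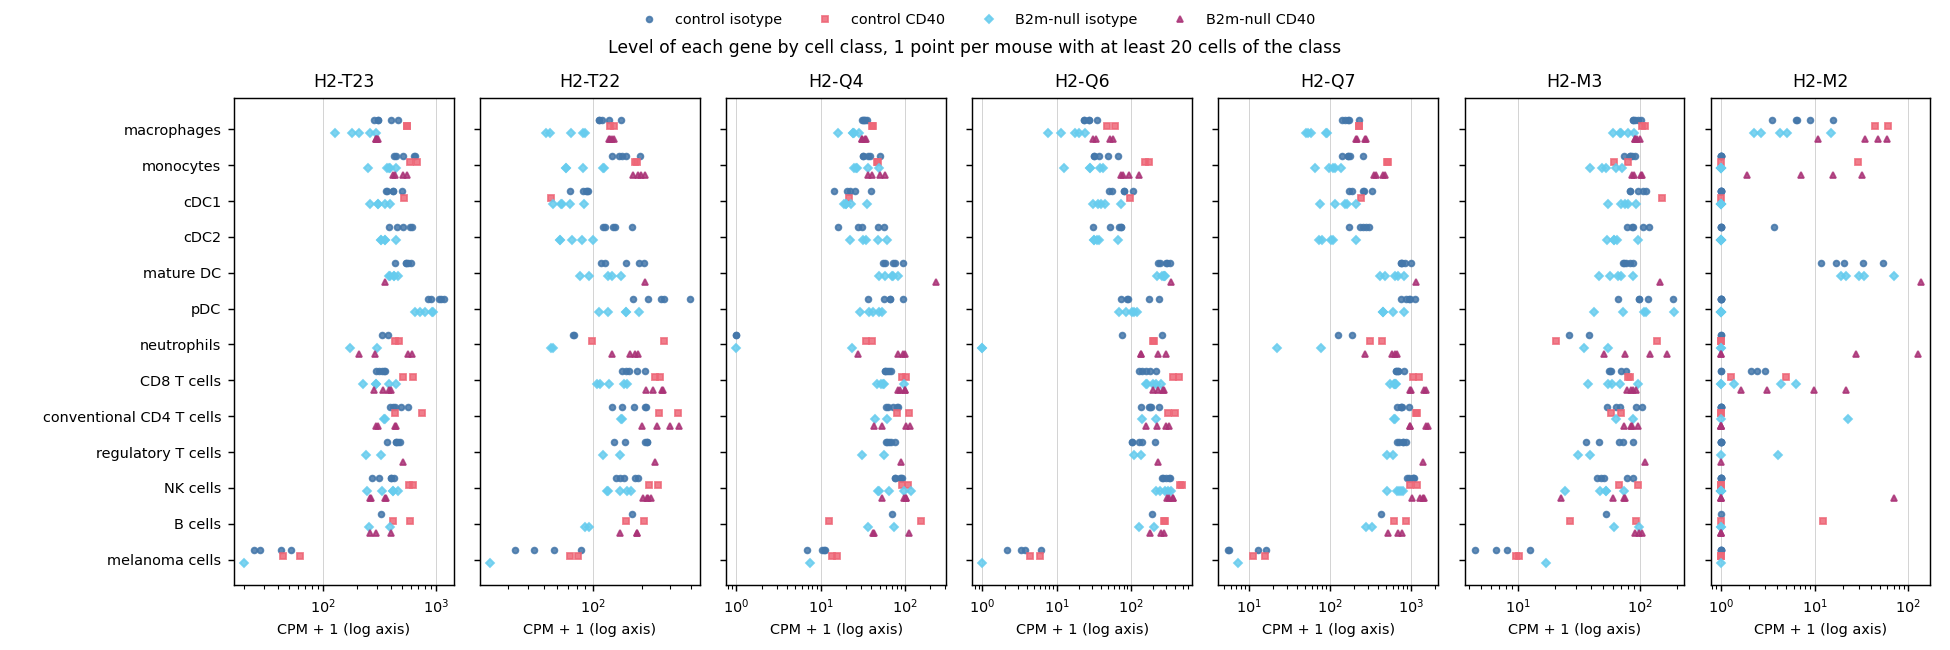
Levels of the 7 genes by cell class. Each point is the CPM of 1 mouse in 1 class on a log10 axis, coloured by group. H2-Q6 and H2-Q7 sit higher in NK and T cells than in macrophages. H2-M2 is found mainly in mature dendritic cells and macrophages and, in the B2m-null CD40 group, also in neutrophils.

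Neighbours in the order of the levels were compared within the mice that had both classes, with an exact paired permutation test, two-sided, on log2(CPM + 1). Of 74 neighbouring pairs with at least 6 shared mice, 5 differed at an adjusted p under 0.05. These were H2-T23 in pDC above monocytes by 1.04 ± 0.30 on the log2 scale (SD, n = 10; adjusted exact p = 0.0289), H2-Q6 in pDC above monocytes, H2-Q6 and H2-Q7 in type 2 conventional dendritic cells (cDC2) above macrophages, and H2-M2 in mature dendritic cells above macrophages. None of the 5 passed when any single isotype lane was left out, where 7 to 9 mice shared these pairs, too few to pass at so few calls. Fewer pairs passed with a stricter gate, with thinned cells or at 5% mitochondrial counts, and more passed at 50 cells per mouse. The other 69 pairs did not pass, which does not show equal levels. In 30 of them 6 to 8 mice had both classes, and the smallest p that 8 mice can give, 0.00781 in this exact test, passes only where at least 12 pairs reach it. Because classes were present in different mice, the order over all mice mixes groups: H2-T22 was higher in pDC than in conventional CD4 T cells by 0.43 on the log2 scale within the 7 mice that had both, against the order of the means.

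CD8 T cells were also compared with macrophages and with NK cells, and monocytes with macrophages. These pairs of classes were picked after the levels had been seen, and 21 paired tests were made in the 16 mice. H2-Q6 was higher in CD8 T cells than in macrophages by 2.97 ± 0.70 on the log2 scale (SD, n = 16; adjusted exact permutation p = 9.16e-05) and H2-Q7 by 2.51 ± 0.62. Both were higher in 16 of 16 mice, as were H2-Q4 by 1.24 and H2-T22 by 0.80. The unadjusted p of these 4, 3.05e-05, is the smallest that 16 mice can give. H2-M3 and H2-M2 went the other way and were higher in macrophages in 14 of 16 mice. The difference of H2-T23 was small, at 0.23 (adjusted exact permutation p = 0.0486). CD8 T cells also held macrophage transcripts, with the sum of Lyz2, Cst3 and Cd68 at 12.0 to 62.4% of its macrophage level by group. The part of these in the differences was not tested. Between CD8 T cells and NK cells, H2-Q6 and H2-Q7 were lower in CD8 T cells, with differences of -0.58 and -0.22. The other members did not pass there, among them H2-T22 with 0.04 and H2-T23 with -0.07. Monocytes, the precursors of many tumour macrophages, were above macrophages for H2-T23 by 0.63 and for H2-Q6 by 0.96 on the log2 scale, each in 16 of 16 mice. They were below macrophages for H2-M3, with a difference of -0.26, and for H2-M2, with -2.44, in 14 and 15 of the 16 mice.

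Genes whose group means ran most like those of a member, over 39 points that are each 1 class in 1 group, were taken from 8361 genes by Pearson's r of mean log2(CPM + 1). The points share libraries, and these values are a description. The closest to H2-Q7 were H2-K1 (0.950), H2-Q6 (0.913), B4galnt1 (0.875), and the closest to H2-Q6 were H2-Q7 (0.913), H2-K1 (0.863), B4galnt1 (0.810). H2-K1 is a classical class I gene. The closest to H2-T22 were H2-Q7 (0.868), H2-K1 (0.862), S1pr4 (0.771), and the closest to H2-T23 were Clec2d (0.884), Laptm5 (0.866), Il10ra (0.845). For H2-Q4 they were Plekha2 (0.875), Esyt1 (0.871), Trim26 (0.871), for H2-M3 Tagln2 (0.844), Cyba (0.839), Ucp2 (0.836) and for H2-M2 Pdlim4 (0.770), Zmynd15 (0.694), Papss2 (0.677). H2-T22, H2-Q6 and H2-Q7 thus had another member or a classical class I gene among their closest 3, and H2-T23, H2-Q4, H2-M3 and H2-M2 did not.

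In control tumours, macrophages of CD40-treated mice held more of 5 of the 7 members than macrophages of isotype-treated mice. Across all genes tested in macrophages, 11.2% were called higher in this comparison. A gene was called at an adjusted p under 0.05 in edgeR's quasi-likelihood test with Benjamini-Hochberg adjustment over all genes tested, and the p-values and changes that follow are from that test. Log2 changes are given with a standard error (SE), taken as the size of the change divided by the square root of the F statistic of that test. Whether values of 2 groups overlapped is given throughout as a description, without the share of all genes that did the same. H2-T23 was at 464, 399.9, 305, 305 and 283 CPM in the 5 control isotype mice and at 555 and 548 CPM in the 2 control CD40 mice. The groups did not overlap, and the log2 change was 0.80 ± 0.23 (SE; adjusted p = 0.024). H2-Q6 was at 33.9, 22.7, 22.5, 26.8 and 26.8 CPM under isotype and at 59.8 and 47.2 CPM under CD40, again without overlap, with a log2 change of 1.15 ± 0.32 (SE; adjusted p = 0.0211). H2-Q4 rose by 0.49 ± 0.15 (SE; adjusted p = 0.0236) and H2-M3 by 0.36 ± 0.11 (SE; adjusted p = 0.0245). H2-Q7 and H2-T22 did not pass, with changes of 0.55 ± 0.23 (SE; adjusted p = 0.0965) and 0.26 ± 0.18 (SE; adjusted p = 0.318). For H2-T22 the CD40 mice, at 133 and 126 CPM, lay within the isotype values of 148, 125, 109, 113 and 108 CPM. Transcripts of T cells were higher in these macrophages under CD40: the sum of Trac, Trbc2 and Nkg7 was 5.73 to 13.04 CPM under isotype and 32.7 to 47.9 CPM under CD40. With every macrophage that held a UMI of these genes left out, the 5 members were still called, H2-Q6 at 1.08 (adjusted p = 0.0228). With an estimated correlation between mice of a lane (limma-voom), 2 of the 5, H2-Q6 and H2-M2, were called. The others had an adjusted p of 0.0582 for H2-T23, 0.0581 for H2-Q4 and 0.0516 for H2-M3.

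In B2m-null tumours all 7 members rose in macrophages under CD40, where 19.6% of all genes tested were called higher. This comparison shares no mouse with that in control tumours. H2-Q7 was at 53.1, 89.0, 58.6, 92.9 and 49.6 CPM in the 5 mice given isotype and at 278, 276, 215 and 210.1 CPM in the 4 given anti-CD40, a 4.15-fold rise or 2.05 ± 0.19 (SE; adjusted p = 3.25e-06) on the log2 scale. The lowest CD40 mouse was above the highest isotype mouse by more than the whole isotype range. H2-Q6 was at 10.5, 22.9, 18.9, 16.9 and 6.56 CPM under isotype and 50.8, 56.2, 32.95 and 29.8 CPM under CD40, with a change of 1.83 ± 0.30 (SE; adjusted p = 0.000324). H2-T22 was at 53.3, 88.3, 72.2, 85.7 and 50.3 CPM under isotype and 131, 133, 126 and 125 CPM under CD40, with a change of 1.11 ± 0.15 (SE; adjusted p = 3.26e-05). Neither of these overlapped between groups. H2-T23, the Qa-1 gene, overlapped: it was at 179, 297, 209, 259 and 128 CPM under isotype and 296, 308, 295 and 302 CPM under CD40, where 1 isotype mouse was higher than 2 of the CD40 mice. Its change was 0.71 ± 0.20 (SE; adjusted p = 0.00941). H2-Q4 rose by 0.72 ± 0.13 (SE; adjusted p = 0.000282) and H2-M3 by 0.59 ± 0.09 (SE; adjusted p = 8.94e-05). The sum of Trac, Trbc2 and Nkg7 in these macrophages was 2.98 to 18.5 CPM under isotype and 10.8 to 21.0 CPM under CD40. Without the macrophages that held a UMI of these genes, which left 96.9% and 92.1% of the cells, all 7 members were still called, H2-Q7 at 2.13 (adjusted p = 2.83e-06).

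**Figure D2:**
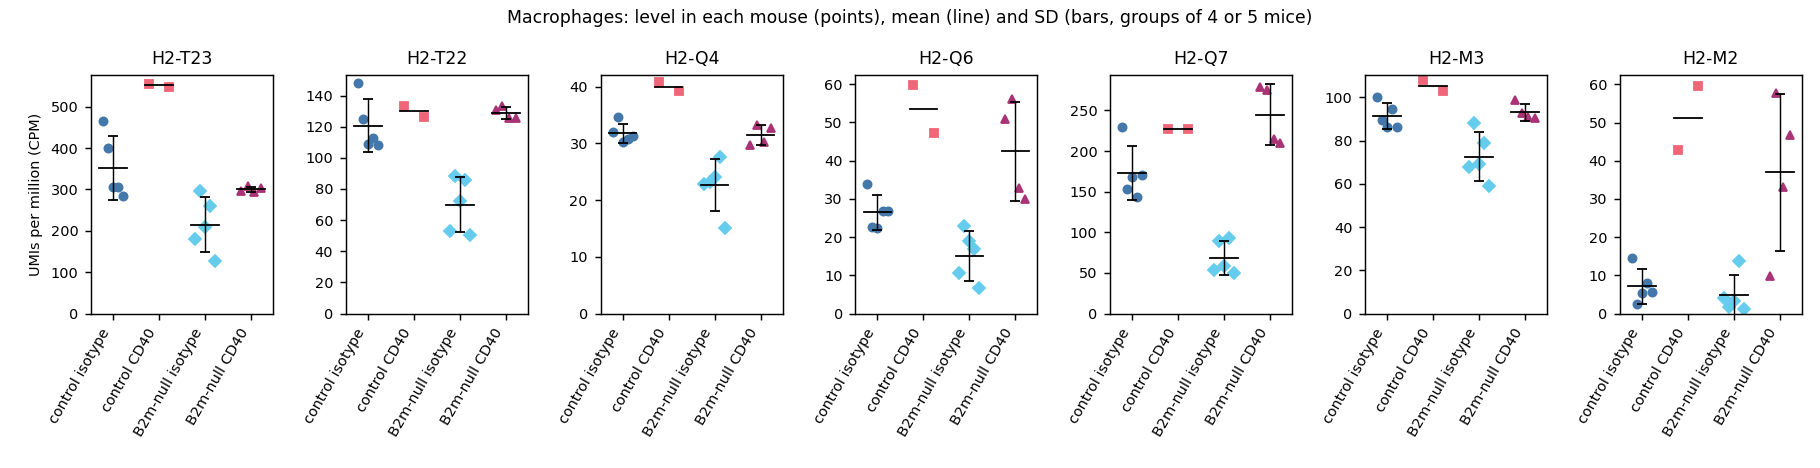
Levels of the 7 genes in macrophages of each mouse. Points are the CPM of 1 mouse, lines the mean of its group and bars the SD in groups of 4 or 5 mice. H2-Q7 in B2m-null tumours lies at 92.9 CPM or less under isotype and at 210.1 CPM or more under CD40.

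H2-M2 changed most of the members in macrophages under CD40, in both kinds of tumour. It was at 14.6, 2.56, 5.35, 7.92 and 5.52 CPM in control isotype and at 42.8 and 59.5 CPM in control CD40 mice, a change of 3.01 ± 0.70 (SE; adjusted p = 0.00896). In B2m-null tumours it was at 4.09, 1.71, 3.31, 13.9 and 1.27 CPM under isotype and at 9.95, 57.9, 33.2 and 46.8 CPM under CD40, a change of 3.03 ± 0.67 (SE; adjusted p = 0.00327). The groups overlapped in B2m-null tumours, where isotype mouse 4 was above CD40 mouse 1, and did not overlap in control tumours. The change in control tumours was 3.09 (adjusted p = 0.0647) without control isotype replicate 1, and that in B2m-null tumours 2.69 (adjusted p = 0.0648) without B2m-null isotype replicate 1, so these were not called. Without control CD40 mouse 2, which leaves 1 mouse in that group, the change in control tumours was 2.69. Few cells carried these transcripts. A UMI of H2-M2 was found in 1.55% of macrophages of the control isotype, 8.09% of the control CD40, 1.01% of the B2m-null isotype and 5.85% of the B2m-null CD40 group. In CD8 T cells, taken as the class for comparison, the shares were 0.476%, 0.349%, 0.491% and 0.401% in the same order. The median depth was 4190 to 6574 UMIs in macrophages and 2016 to 4445 in CD8 T cells.

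With every cell thinned to 1000 UMIs, and the 87, 148, 48 and 51 shallower macrophages of the 4 groups left out, the share of H2-M2-positive macrophages was 0.425%, 2.62%, 0.264% and 1.47%. Thinned CD8 T cells gave 0.0701%, 0.177%, 0.334% and 0.194%. In the B2m-null isotype group the thinned share was thus no higher in macrophages than in CD8 T cells, but the latter rests on 2 of 598 cells. Without thinning, macrophages of that group held 242 counts (4.67 CPM over the group) and CD8 T cells 3 counts (0.845 CPM). Positive macrophages held 2.96, 3.83, 3.90 and 4.89 UMIs of H2-M2 on average in the 4 groups. Positive CD8 T cells, which numbered 7, 19, 3 and 15, held 1.29, 2.32, 1.00 and 5.87, with up to 24 in 1 cell of the B2m-null CD40 group. The part of free RNA in these counts was not tested. The 1% of macrophages with most H2-M2 held 49.9% of its counts in the control CD40 group and 61.1% in the B2m-null CD40 group, and 1 cell of the latter had 148 UMIs. Monocytes of both isotype groups held 0 counts among 4857259 and 4350352 UMIs. Their CD40 groups held 14 counts in 2 of 310 cells and 49 counts in 11 of 904 cells. Set against a floor of 3 counts over the isotype group, these are 29.7-fold and 19.4-fold higher per UMI. With so few positive cells these values are not bounds on the change. Neither passed the test across mice (adjusted p = 0.214 and 0.115), and 1 of the 2 control CD40 mice had 0 counts. In the control and B2m-null isotype groups, 6.36% and 6.60% of mature dendritic cells held a UMI. These shares were above those of macrophages, monocytes and CD8 T cells of the same groups, and other classes were not compared. The CD40 groups held 23 and 51 mature dendritic cells, too few to compare.

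Monocytes gained H2-Q6 and H2-Q7 under CD40 in control tumours, which were 2 of the 7 members, where 5.55% of all genes tested were called higher. H2-Q7 was at 256, 142, 169, 169 and 179 CPM under isotype and 508 and 523 CPM under CD40, a change of 1.47 ± 0.18 (SE; adjusted p = 1.98e-06). H2-Q6 was at 67.2, 30.8, 36.2, 48.2 and 30.6 CPM under isotype and 154 and 173 CPM under CD40, a change of 1.95 ± 0.29 (SE; adjusted p = 6.94e-05). Transcripts of T cells moved with this result. The sum of Trac, Trbc2 and Nkg7 in monocytes was 25.5 to 68.6 CPM in control isotype and 533 to 561 CPM in control CD40 mice, 1.67% and 16.2% of their level in CD8 T cells. Of 9 tested genes in a list of lymphocyte and myeloid receptors for class I molecules, 6 were called higher there, led by Cd8b1 with a log2 change of 3.96 and Klrc1 with 3.64. With every monocyte that held a UMI of Trac, Trbc2 or Nkg7 left out, 65.8% of the control CD40 monocytes remained, and the changes were 0.93 (adjusted p = 0.00138) for H2-Q7 and 1.60 (adjusted p = 0.00301) for H2-Q6.

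In B2m-null tumours 6 of the 7 members rose in monocytes under CD40, where 11.9% of all genes tested were called higher. H2-Q7 was at 114, 137, 110.2, 96.4 and 65.6 CPM under isotype and 458, 481, 356 and 373 CPM under CD40, a 4.81-fold rise or 2.27 ± 0.17 (SE; adjusted p = 2.45e-10) on the log2 scale. H2-Q6 was at 38.1, 41.6, 27.6, 27.7 and 11.8 CPM under isotype and 128, 95.1, 73.2 and 78.3 CPM under CD40, a change of 2.05 ± 0.27 (SE; adjusted p = 1.33e-05). In both genes every CD40 mouse was above every isotype mouse. H2-T22 rose by 1.24 ± 0.15 (SE; adjusted p = 7.74e-07), H2-M3 by 0.94 ± 0.15 (SE; adjusted p = 4.80e-05), H2-Q4 by 0.91 ± 0.21 (SE; adjusted p = 0.00209) and H2-T23 by 0.58 ± 0.14 (SE; adjusted p = 0.00413). H2-Q4, at 23.6 to 47.6 CPM under isotype and 35.0 to 56.9 CPM under CD40, overlapped between groups. So did H2-T23, at 252 to 438 and 417 to 553 CPM. The sum of Trac, Trbc2 and Nkg7 was at 2.98% of its CD8 T cell level in these isotype monocytes and at 1.96% in the CD40 monocytes, and its ranges of 15.1 to 109.6 and 47.6 to 101 CPM overlapped.

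Conventional dendritic cells, in which cDC1, cDC2 and mature dendritic cells were summed, were few under CD40, with 90 cells in the control and 132 in the B2m-null group, where 3 of the 4 mice had at least 20, against 1448 and 1312 under isotype. In control tumours 0 of the 7 members were called by edgeR, 0 had an unadjusted p under 0.05 and DESeq2 called 0, with 1.26% of all genes called higher. Mature dendritic cells, in which H2-Q7 averaged 831 CPM in control isotype mice against 243 in cDC1 and 252 in cDC2, made up 38.2, 31.2, 41.8, 37.9 and 39.2% of the set in those mice and 20.7 and 27.9% in the control CD40 mice, without overlap. In B2m-null tumours 4 of 7 rose, with 5.27% of all genes called higher. H2-Q7 was at 329, 315, 194, 304 and 233 CPM under isotype and 678, 389 and 431 CPM under CD40, a change of 0.95 ± 0.21 (SE; adjusted p = 0.00974). H2-M3 was at 69.8, 67.2, 72.0, 66.7 and 64.9 CPM under isotype and 109.7, 90.8 and 141 CPM under CD40, a change of 0.86 ± 0.18 (SE; adjusted p = 0.00363). Neither gene overlapped between the groups. H2-T22 rose by 0.71 ± 0.20 (SE; adjusted p = 0.0236) and H2-Q4 by 0.94 ± 0.29 (SE; adjusted p = 0.0409). Both overlapped between groups. H2-Q4 was at 54.1, 37.6, 42.5, 38.1 and 32.5 CPM under isotype and 129, 64.8 and 32.2 CPM under CD40. The last of these CD40 mice was below every isotype mouse. For H2-T22 the lowest CD40 mouse, at 100.5 CPM, was below the highest isotype mouse, at 101.4 CPM. With an estimated correlation between mice of a lane, H2-T22 (adjusted p = 0.0637 by limma-voom) and H2-Q4 (adjusted p = 0.117) were not called. The mix of subsets differed between mice here too. Mature dendritic cells, in which H2-Q7 averaged 616 CPM in B2m-null isotype mice against 144 in cDC1 and 116 in cDC2, made up 48.1, 46.2, 28.3, 35.3 and 29.8% of the set in the B2m-null isotype mice and 56.8, 22.2 and 22.2% in the CD40 mice, in the order of the values above. The part of the mix in either result was not tested. The rise of H2-Q4 was not called without the cells that held T cell transcripts, at 0.75 (adjusted p = 0.111).

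In CD8 T cells 5 of the 7 members rose under CD40 in control tumours, where 16% of all genes tested were called higher. H2-Q6 changed most. It was at 162, 139.9, 126, 219 and 181 CPM in control isotype mice and at 375 and 451 CPM in control CD40 mice, a 2.56-fold rise or 1.35 ± 0.17 (SE; adjusted p = 1.50e-05) on the log2 scale. H2-T23 was at 294, 357, 314, 332 and 343 CPM under isotype and 511 and 622 CPM under CD40, a change of 0.84 ± 0.17 (SE; adjusted p = 0.000755). In both genes the CD40 mice were above every isotype mouse. H2-Q7 rose by 0.77 ± 0.17 (SE; adjusted p = 0.00205), H2-Q4 by 0.71 ± 0.16 (SE; adjusted p = 0.00158) and H2-T22 by 0.56 ± 0.16 (SE; adjusted p = 0.0103). H2-M3 was at 62.5 and 80.4 CPM on average and did not pass.

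In B2m-null tumours 5 of the 7 also rose in CD8 T cells, with 7.85% of all genes called higher. They were H2-Q7, H2-T22, H2-Q4, H2-M3 and H2-Q6. H2-Q7 was at 635, 623, 552, 646 and 653 CPM under isotype and 995, 971, 1545 and 1445 CPM under CD40, a change of 1.17 ± 0.15 (SE; adjusted p = 4.36e-05), and no value overlapped. H2-T22 was at 153, 110.0, 125, 161 and 105 CPM under isotype and 212, 234, 269 and 266 CPM under CD40, a change of 1.02 ± 0.15 (SE; adjusted p = 0.000144), again without overlap. H2-Q4 rose by 0.82 ± 0.16 (SE; adjusted p = 0.00177), H2-M3 by 0.57 ± 0.18 (SE; adjusted p = 0.0361) and H2-Q6 by 0.55 ± 0.16 (SE; adjusted p = 0.0274), the last not called with an estimated correlation between mice of a lane (adjusted p = 0.0573 by limma-voom). All of these overlapped between groups. H2-M3 was at 95.6 CPM in B2m-null isotype mouse 5, above every CD40 mouse, at 77.7 to 92.6 CPM. H2-Q6 was at 159 to 257 CPM under isotype and 200.4 to 276 CPM under CD40, and H2-Q4 at 45.8 to 95.2 and 82.1 to 100.1 CPM. H2-T23 was at 296, 440.0, 381, 293 and 224 CPM under isotype and 282, 338, 399.6 and 383 CPM under CD40, overlapping groups with a change of 0.34 ± 0.15 (SE; adjusted p = 0.141), which did not pass. The difference of its CD40 changes between the genotypes did not pass either (adjusted p = 0.164). Transcripts of macrophages moved in these cells as well. The sum of Lyz2, Cst3 and Cd68 in CD8 T cells averaged 2471 CPM under isotype and 903 CPM under CD40 in control tumours. In B2m-null tumours it averaged 4322 CPM under isotype and 1705 CPM under CD40. In control tumours this was 36.4% under isotype and 12.0% under CD40 of the level in macrophages of the same group. In B2m-null tumours it was 62.4% and 17.8%. With CD8 T cells that held more than 3 UMIs of these genes left out, the 5 rises in control tumours were still called. In B2m-null tumours H2-Q6, at 0.57 (adjusted p = 0.0594), and H2-M3, at 0.44 (adjusted p = 0.239), were no longer called. The cells kept were 74.2% under isotype and 92.7% under CD40 in control tumours, and 74.6% and 88.3% in B2m-null tumours.

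**Figure D3:**
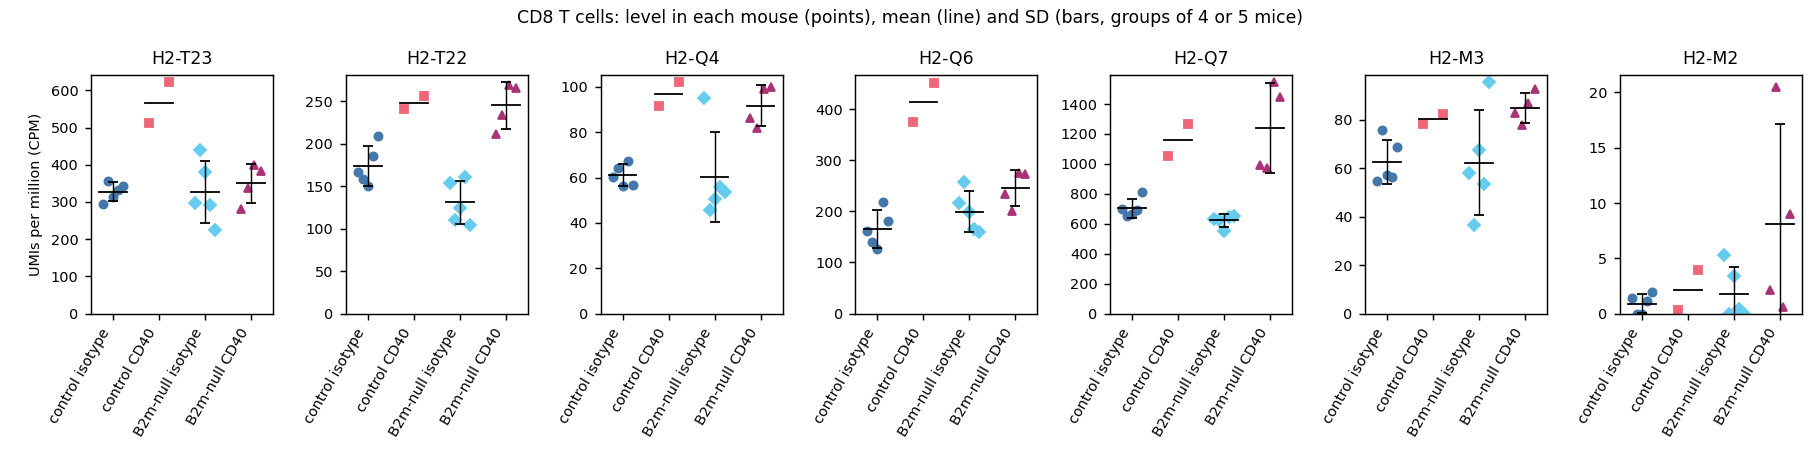
Levels of the 7 genes in CD8 T cells of each mouse. Points are the CPM of 1 mouse, lines the mean of its group and bars the SD in groups of 4 or 5 mice. H2-Q6 lies at 375 and 451 CPM in the control CD40 mice, above every mouse of the other groups.

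Conventional CD4 T cells and NK cells were each tested for 6 members. In conventional CD4 T cells of control tumours, H2-Q6 rose by 0.94 ± 0.26 (SE; adjusted p = 0.0255) under CD40, 1 of 6 members tested against 3.86% of all genes called higher, and it was not called without the cells with macrophage transcripts, at 0.96 (adjusted p = 0.145). In B2m-null tumours H2-Q7 rose by 1.06 ± 0.21 (SE; adjusted p = 0.00403) and H2-T22 by 0.88 ± 0.26 (SE; adjusted p = 0.0464), 2 of 6 against 2.09% of all genes, with 2 isotype mice. Both isotype mice came from the pool of replicate 2, so an effect of that pool cannot be told apart from that of the group. Cells with few macrophage transcripts were 55.6% of these cells under isotype and 90.1% under CD40, and without the others the comparison could not be fitted. In NK cells of control tumours, H2-T23 was at 397, 424, 403, 269 and 313 CPM under isotype and 577 and 624 CPM under CD40, a change of 0.83 ± 0.20 (SE; adjusted p = 0.0107) with no overlap. H2-Q6 rose there by 0.74 ± 0.18 (SE; adjusted p = 0.0128), and these 2 of 6 compare with 1.99% of all genes. In NK cells of B2m-null tumours, H2-Q7 was at 512, 709, 672, 768 and 805 CPM under isotype and 1293, 1048, 1414 and 1469.8 CPM under CD40, a change of 1.06 ± 0.16 (SE; adjusted p = 3.82e-05). H2-T22 rose by 0.77 ± 0.19 (SE; adjusted p = 0.0108), and these 2 of 6 compare with 3.54% of all genes. H2-M2 was not tested in either class for want of counts.

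**Figure D4:**
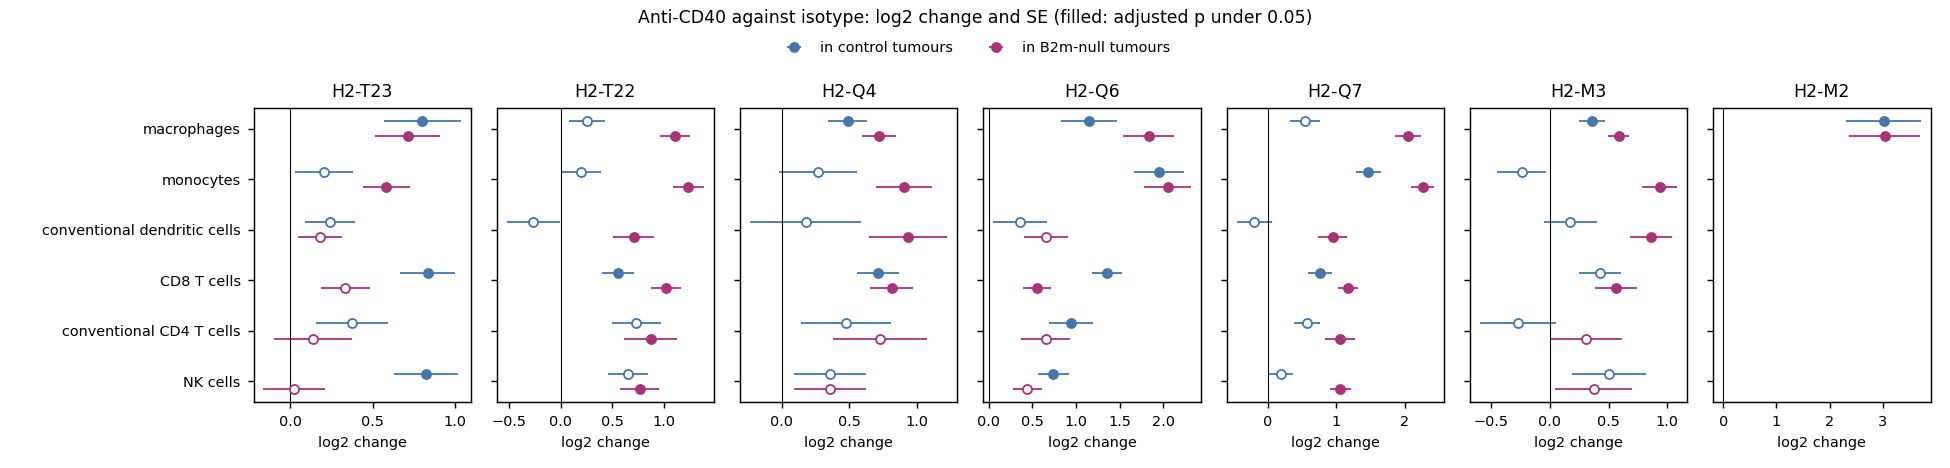
Log2 change of each gene under CD40 against isotype, with its standard error, in 6 cell sets for control and B2m-null tumours. H2-M2 is drawn in macrophages alone. Filled points passed the test, and every passing change lies above 0.

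Over the 40 tests of a member in a cell set, 15 were called under CD40 in control tumours and 26 in B2m-null tumours, all higher. Of all genes tested in a set, 1.26 to 16% were called higher in control tumours and 2.09 to 19.6% in B2m-null tumours. The 40 tests share mice, and the members are paralogs, so they are not independent results. In control tumours the count of calls was 7 without control isotype replicate 1, 9 without control isotype replicate 2 and 7 with the lane as the unit. It was lower as well without either control CD40 mouse, but such a fit leaves 1 mouse in that group and takes the spread from the other groups. With the lane as the unit, the control CD40 group still rests on 1 pool. In B2m-null tumours the count was 13 with the lane as the unit and lay between 20 and 28 when any 1 mouse or lane was left out. H2-Q7 in monocytes and H2-Q6 in CD8 T cells of control tumours were called under every alternative in which they could be fitted, as were 9 of the calls in B2m-null tumours, all in macrophages and monocytes. Mice of a lane resembled each other, with an estimated correlation within lanes between 0.074 in NK cells and 0.251 in CD8 T cells, so p-values that take mice as independent can be too small.

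Under isotype, macrophages of B2m-null tumours held less of 6 of the 7 members than macrophages of control tumours, where 7.09% of all genes tested were called lower. These mice are the isotype mice of the comparisons above. H2-Q7 was at 229, 153, 168, 143 and 171 CPM in control and at 53.1, 89.0, 58.6, 92.9 and 49.6 CPM in B2m-null tumours, a change of -1.41 ± 0.18 (SE; adjusted p = 0.000675). H2-T22 was at 148, 125, 109, 113 and 108 CPM in control and 53.3, 88.3, 72.2, 85.7 and 50.3 CPM in B2m-null tumours, a change of -0.86 ± 0.14 (SE; adjusted p = 0.00173). Neither overlapped. H2-T23 was at 464, 399.9, 305, 305 and 283 CPM in control and 179, 297, 209, 259 and 128 CPM in B2m-null tumours, with 1 B2m-null mouse within the control range, and its change was -0.79 ± 0.19 (SE; adjusted p = 0.015). H2-Q6 fell by 1.02 ± 0.29 (SE; adjusted p = 0.0357) on the log2 scale, H2-Q4 fell by 0.57 ± 0.12 (SE; adjusted p = 0.00703) and H2-M3 fell by 0.41 ± 0.09 (SE; adjusted p = 0.00663). H2-Q6, at 22.5 to 33.9 CPM in control and 6.56 to 22.9 CPM in B2m-null tumours, overlapped between groups. So did H2-M3, at 86.2 to 100.4 and 59.2 to 88.3 CPM. H2-M2 was at 7.20 and 4.85 CPM on average and did not pass (adjusted p = 0.723).

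Monocytes and dendritic cells moved the same way under isotype. In monocytes 4 of 7 were lower in B2m-null tumours, with 1.49% of all genes called lower. H2-Q7 was at 256, 142, 169, 169 and 179 CPM in control and 114, 137, 110.2, 96.4 and 65.6 CPM in B2m-null tumours, a change of -0.95 ± 0.16 (SE; adjusted p = 0.000913). H2-T22 changed by -0.81 ± 0.15 (SE; adjusted p = 0.00126), H2-T23 by -0.63 ± 0.14 (SE; adjusted p = 0.00972) and H2-M3 by -0.61 ± 0.15 (SE; adjusted p = 0.0178). In conventional dendritic cells 3 of 7 were lower, with 1.2% of all genes called lower: H2-Q7 changed by -0.67 ± 0.17 (SE; adjusted p = 0.0407), H2-T22 by -0.52 ± 0.13 (SE; adjusted p = 0.029) and H2-T23 by -0.43 ± 0.10 (SE; adjusted p = 0.0226). With an estimated correlation between mice of a lane, limma-voom did not call H2-M3 in monocytes (adjusted p = 0.0504) or H2-Q7 in dendritic cells (adjusted p = 0.0626).

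Lymphocytes gave no called member in this comparison by edgeR. In CD8 T cells, with 0.378% of all genes called lower, H2-T22 had an unadjusted p under 0.05 and DESeq2 called 0 members. In conventional CD4 T cells, with 0.0261% of all genes, 0 members had such a p and DESeq2 called 0. In NK cells, with 0% of all genes, H2-Q7 had an unadjusted p under 0.05 and DESeq2 called 1. H2-Q7 in NK cells was at 1080.0, 1078, 894, 951 and 1087 CPM in control and 512, 709, 672, 768 and 805 CPM in B2m-null tumours, where no value overlapped, and its change was -0.58 ± 0.15 (SE; adjusted p = 0.184). The count of 13 in this comparison was 1 without control isotype replicate 1, 5 without B2m-null isotype replicate 1 and 5 with the lane as the unit.

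**Figure D5:**
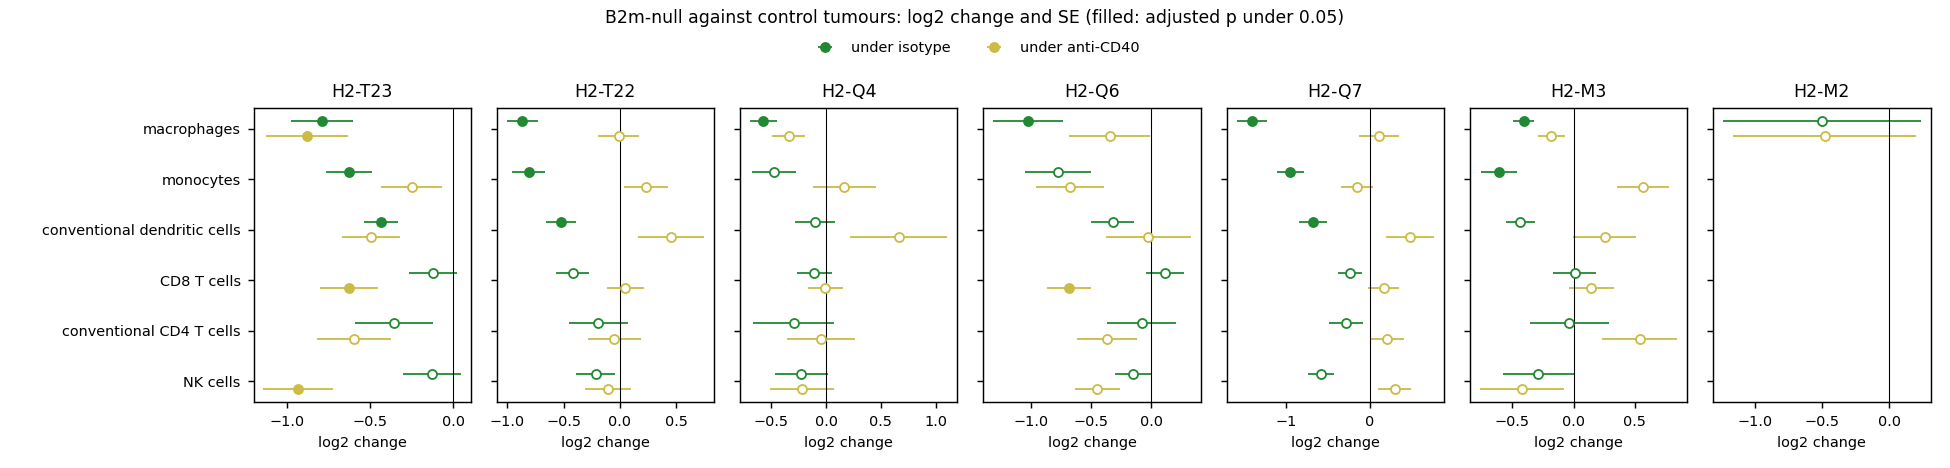
Log2 change of each gene in B2m-null against control tumours, with its standard error, in 6 cell sets under isotype and under CD40. H2-M2 is drawn in macrophages alone. The passing changes under isotype lie in macrophages, monocytes and conventional dendritic cells.

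Under CD40, 4 of 40 tests of a member were called between B2m-null and control tumours, all lower in B2m-null tumours. These mice are the CD40 mice of the comparisons above. H2-T23 accounted for 3 of them. In macrophages it was at 555 and 548 CPM in control CD40 and 296, 308, 295 and 302 CPM in B2m-null CD40 mice, a change of -0.88 ± 0.24 (SE; adjusted p = 0.0333), which was not called with an estimated correlation between mice of a lane (adjusted p = 0.079 by limma-voom). Its level in CD8 T cells was 511 and 622 CPM in control and 282, 338, 399.6 and 383 CPM in B2m-null tumours, a change of -0.62 ± 0.17 (SE; adjusted p = 0.032). In NK cells it was at 577 and 624 CPM in control and 261, 267, 359 and 351 CPM in B2m-null tumours, a change of -0.93 ± 0.21 (SE; adjusted p = 0.0165). The 2 control CD40 mice were above all 4 B2m-null CD40 mice in each of these 3 classes. The classes come from the same mice, and both control mice from 1 pool, so they are not separate results. H2-Q6 in CD8 T cells was the fourth, at 375 and 451 CPM in control and 234, 200.4, 276 and 272 CPM in B2m-null tumours, a change of -0.68 ± 0.18 (SE; adjusted p = 0.0273). Of all genes tested, 11.3% were called in either direction in macrophages, 7.42% in CD8 T cells and 1.33% in NK cells. In monocytes (9.93% of all genes) edgeR called 0 members, H2-Q6 and H2-M3 had an unadjusted p under 0.05 and DESeq2 called 0. In conventional dendritic cells (0.629%) and conventional CD4 T cells (1.83%) edgeR and DESeq2 called 0, with H2-T23 alone at an unadjusted p under 0.05 in each. The count of 4 rests on few mice: it was 0 without B2m-null CD40 mouse 1, 1 without B2m-null CD40 mouse 2 or without B2m-null CD40 replicate 1, and 1 with the lane as the unit. It was lower as well without either control CD40 mouse, but such a fit leaves 1 mouse in that group and takes the spread from the other groups.

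The size of the CD40 change itself differed between the tumour genotypes in 6 of 40 tests. In macrophages the change of H2-Q7 was 0.55 in control and 2.05 in B2m-null tumours, a difference of 1.51 ± 0.31 (SE; adjusted p = 0.00455), and that of H2-T22 was 0.26 and 1.11, a difference of 0.85 ± 0.23 (SE; adjusted p = 0.0192). In monocytes the difference was 1.04 ± 0.25 (SE; adjusted p = 0.00504) for H2-T22, 1.18 ± 0.26 (SE; adjusted p = 0.00267) for H2-M3 and 0.80 ± 0.25 (SE; adjusted p = 0.038) for H2-Q7. For H2-M3 in monocytes this set a change of -0.24 in control tumours, which did not pass, against a rise of 0.94 in B2m-null tumours. The sum of Trac, Trbc2 and Nkg7 differed between these monocytes. It was at 16.2% of its CD8 T cell level in the control CD40 and 1.96% in the B2m-null CD40 group. With cells that held transcripts of another lineage left out, the monocyte differences were still called. CD8 T cells held the 1 called difference of the other sign: H2-Q6 rose by 1.35 in control and 0.55 in B2m-null tumours, a difference of -0.80 ± 0.24 (SE; adjusted p = 0.0366). Without the CD8 T cells that carried macrophage transcripts it was -0.72 (adjusted p = 0.0788), and with an estimated correlation between mice of a lane it was not called (adjusted p = 0.0925 by limma-voom). Under CD40 H2-Q7 in macrophages was at 227 and 227 CPM in control and 245 ± 37.3 CPM (SD, n = 4) in B2m-null tumours, and their difference did not pass (adjusted p = 0.823). Under isotype they averaged 173 ± 33.5 CPM (SD, n = 5) in control and 68.6 ± 20.6 CPM (SD, n = 5) in B2m-null tumours.

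Of all genes tested, the difference was called in 19.6% in macrophages, 12.7% in monocytes and 11% in CD8 T cells, so 2 of 7, 3 of 7 and 1 of 7 members stand beside sizeable backgrounds. In conventional dendritic cells (2.23% of all genes) edgeR called 0 members, with H2-T22, H2-Q7 and H2-M3 at an unadjusted p under 0.05 and 1 called by DESeq2. In conventional CD4 T cells (0.653%) edgeR called 0, with 0 such p-values and 0 by DESeq2. In NK cells (1.5%) edgeR called 0, with H2-T23 and H2-Q7 at an unadjusted p under 0.05 and 1 called by DESeq2. The count of 6 was 3 without control isotype replicate 1 and 2 with the lane as the unit. It was lower as well without either control CD40 mouse, a fit that leaves 1 mouse in that group and takes the spread from the others.

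The genes around the members in the class I pathway were read from lists beside the members. The classical heavy chain genes H2-K1 and H2-D1 and B2m rose in macrophages under CD40, 3 of 3 in control tumours (median log2 change 0.57, with 11.2% of all genes called higher) and 3 of 3 in B2m-null tumours (median 0.85, with 19.6%). They were lower in B2m-null tumours under isotype, 3 of 3 (median -0.57, with 7.09% of all genes called lower). The medians of the members over the same comparisons were 0.55, 1.11 and -0.79, and those of all genes tested -0.017, -0.020 and 0.002. In monocytes 1 of 3 was called in control tumours, H2-K1 with 0.40 ± 0.13 (SE; adjusted p = 0.0498), while H2-D1 was at -0.08 and B2m at 0.11 on the log2 scale, and 3 of 3 were called in B2m-null tumours (median 0.95). Of all genes in monocytes, 5.55% and 11.9% were called higher in these comparisons. In conventional dendritic cells of control tumours edgeR called 0 of 3 (median 0.03), with 0 at an unadjusted p under 0.05 and 0 called by DESeq2, against 1.26% of all genes called higher, and 3 of 3 rose in those of B2m-null tumours, against 5.27%. CD8 T cells had 2 of 3 higher in control tumours, against 16% of all genes, and 3 of 3 in B2m-null tumours, against 7.85%, led by H2-D1 in the latter with 0.82 ± 0.13 (SE; adjusted p = 0.00023).

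Of 13 genes that make and load class I peptides, 9 rose and 1 fell in macrophages of B2m-null tumours under CD40, where 19.6% of all genes were called higher and 20.2% lower. They were led by the immunoproteasome subunits Psmb8 with 1.44 ± 0.14 (SE; adjusted p = 2.11e-06), Psmb10 with 1.33 and Psmb9 with 1.22 on the log2 scale. In control tumours 0 rose and 2 fell, the endoplasmic reticulum chaperones Calr with -0.60 ± 0.12 (SE; adjusted p = 0.00172) and Pdia3 with -0.58 ± 0.09 (SE; adjusted p = 0.000234), where 11.2% of all genes were called higher and 10.7% lower. The difference of the CD40 changes was called in 7 genes with the higher change in B2m-null tumours and in 1 the other way, against 19.6% of all genes in either direction. Under isotype 8 of the 13 were lower and 1 was higher in B2m-null than in control tumours, where 7.09% of all genes were lower and 5.02% higher. In monocytes 0 rose and 2 fell in control tumours, with 5.55% of all genes called higher and 4.44% lower. In those of B2m-null tumours 9 rose and 1 fell, with 11.9% of all genes called higher and 8.87% lower.

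Of 14 regulators of class I transcription, 5 rose, against 19.6% of all genes, and 1 fell in macrophages of B2m-null tumours under CD40. Among them were Irf1, an interferon-induced activator, with 1.29 ± 0.26 (SE; adjusted p = 0.00161), and Nlrc5, the transactivator of class I genes, with 0.90. In macrophages of control tumours edgeR called 0 of the 14, 2 had an unadjusted p under 0.05 and DESeq2 called 1. Under isotype 5 were lower in B2m-null tumours, against 7.09% of all genes, among them Irf1 with -1.44. For CD8 T cells of control tumours, 0 fell and 6 rose, among them Irf1 with 1.24 ± 0.15 (SE; adjusted p = 1.05e-05) and Nlrc5 with 1.19, and in those of B2m-null tumours 4 rose and 2 fell. Of all genes, 16% and 7.85% were called higher in these comparisons, and 16.6% and 6.24% lower.

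Among 15 other class Ib and class I-like genes, Cd1d1, which presents lipids to NKT cells, was called higher in macrophages of control tumours, by 1.00 ± 0.24 (SE; adjusted p = 0.00656), 1 of 6 tested where 11.2% of all genes were called higher. In B2m-null tumours, where 19.6% of all genes were called higher and 20.2% lower, 2 of the 6 rose, Cd1d1 with 1.05 and H2-Q10 with 0.78, and 2 fell, Fcgrt, the neonatal Fc receptor, with -1.11 and Hfe with -0.49. In monocytes 5 genes of this list were tested, where 5.55% of all genes were called higher in control tumours, and 11.9% higher and 8.87% lower in B2m-null tumours. Cd1d1 rose by 2.14 ± 0.44 (SE; adjusted p = 0.00118) in control tumours and was called higher in B2m-null tumours as well, where Hfe, with -1.59, and H2-Q10, with -1.19 ± 0.43 (SE; adjusted p = 0.0465), were called lower. Among the 15 receptors, which include the partners of Qa-1, 2 of 13 tested rose and 0 fell in CD8 T cells of control tumours, Klra3 and Cd8b1, a share no higher than the 16% of all genes called higher there. In B2m-null tumours, with 7.85% of all genes, 3 rose and 0 fell, Cd160, Cd8b1 and Cd8a, of which the CD8 genes were used to gate these cells. In NK cells of B2m-null tumours 2 of 11 rose, Klra1 with 0.79 ± 0.23 (SE; adjusted p = 0.0395) and Klrd1, the CD94 gene, with 0.75 ± 0.19 (SE; adjusted p = 0.0168), against 3.54% of all genes called higher. In those of control tumours 0 rose, against 1.99% of all genes, and 1 fell, Lilrb4a, against 0.641%. In conventional CD4 T cells Klrc1, the NKG2A gene, rose by 2.97 ± 0.76 (SE; adjusted p = 0.017) in control and 2.94 ± 0.85 (SE; adjusted p = 0.0402) in B2m-null tumours, 1 of 6 tested in each, against 3.86% and 2.09% of all genes called higher. The B2m-null isotype group held 2 mice of a single pool here. Cells with few macrophage transcripts were 64.0% under isotype and 89.5% under CD40 in control tumours, and 55.6% and 90.1% in B2m-null tumours.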

How the data were processed

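The samples are 8 lanes of droplet libraries with 3′ version 3 chemistry and hashtags, per the labels. The deposited matrices hold UMI counts per gene and barcode, which the authors made with Cell Ranger 3.0.0 on mm10, per the submitters' processing notes. Values start at 500 UMIs per barcode in the deposited files. Here, a barcode was dropped as a doublet where 2 of its hashtags passed the background by 2.5 SD (9676, or 8.3%). Other barcodes with at least 20 hashtag counts were assigned to a mouse where exactly 1 hashtag passed the background by 2 SD. Where that rule gave no mouse, a posterior of 0.9 in a mixture model was used. Barcodes on which the rules disagreed were not assigned. Doublets within a mouse were not removed. Cells under 200 genes or above 10% mitochondrial counts were dropped. Gates used fixed markers, and 26471 cells were in no class and 434 in several. Counts were summed per mouse and class (at least 20 cells) and fitted in 1 model of the 4 groups with edgeR 4.0.16 in R 4.3.3, filtered by expression. Limma 3.58.1 and DESeq2 1.42.0 were alternatives. Scripts were tested on simulated data. Summed over a group, the 6 tested sets held between 379454 and 51863913 UMIs. Nothing in the labels says that a shared replicate number pairs lanes, and the fits do not pair them. All 7 members were named whatever their values, and from each list at most the 3 called genes with the largest change. The members and lists were chosen with earlier results of these data known. The alternative that leaves out cells with transcripts of another lineage was chosen after seeing the data.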

Additional observations from a re-analysis of the deposited data

Results flagged for a closer look

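Among 106 groups of 4 or 5 mice that were searched for a mouse far from the others, 5 held one, and chance gives about 1 in 20. In CD8 T cells H2-Q4 was at 95.2 CPM in B2m-null isotype mouse 1, above the other 4 mice. In NK cells H2-Q4 was at 52.8 CPM in B2m-null CD40 mouse 1, below the other 3. H2-Q7 in CD8 T cells was at 815 CPM in control isotype mouse 5, above the other 4. H2-M2 in macrophages was at 13.9 CPM in B2m-null isotype mouse 4, above the other 4. H2-M2 in NK cells was at 70.1 CPM in B2m-null CD40 mouse 3 and at 0 in the other 3, from 16 counts in all.

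The CD40 change differed between tumour genotypes by a tested difference in 6 places. It was 0.85 on the log2 scale for H2-T22 and 1.51 for H2-Q7 in macrophages, and 1.04 for H2-T22, 0.80 for H2-Q7 and 1.18 for H2-M3 in monocytes. It was -0.80 for H2-Q6 in CD8 T cells.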

How the results depend on the processing

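Of 64 called changes of a member, 13 were called under every alternative in which they could be fitted and 0 changed direction in any. The 13 were H2-T22, H2-Q4, H2-Q6, H2-Q7 and H2-M3 in macrophages, and H2-T22, H2-Q6, H2-Q7 and H2-M3 in monocytes, of B2m-null tumours under CD40; H2-Q7 in monocytes and H2-Q6 in CD8 T cells of control tumours under CD40; and, in macrophages, H2-Q7 between genotypes under isotype and in the difference of the CD40 changes. RLE size factors, no low-count filter, DESeq2 and limma-voom with the lane as a correlated block moved no count of calls by more than 1.5 times, nor did leaving out cells with transcripts of another lineage, an alternative chosen after seeing the data (14, 21, 13, 4 and 5 calls in the order below; 2 in conventional CD4 T cells of B2m-null tumours could not be fitted). The correlated block still ended 10 single calls, given in the report. CD40 in control tumours (main 15): 7 with the lane as the unit, 7 when cells without a hashtag were added, and 3 to 19 when a mouse or lane was left out. CD40 in B2m-null tumours (main 26): 13 and 16 in the same order, 16 with a stricter gate, 14 with cells thinned to 1000 UMIs and 20 to 28. Genotype under isotype (main 13): 5, 7, 6 thinned, 8 at 5% mitochondrial counts and 1 to 14. Genotype under CD40 (main 4): 1, 0, 1 with the stricter gate and 0 to 6. Difference of CD40 changes (main 6): 2, 3, 3 with the stricter gate, 2 thinned and 3 to 8. Neighbouring classes (main 5): 3 with the stricter gate, 9 at 50 cells per mouse, 3 thinned, 2 at 5% mitochondrial counts and 0 to 7; 0 was the count without any 1 of the 4 isotype lanes, where 7 to 9 mice shared the 5 pairs, too few to pass at so few calls. The stricter gate, thinning and the 5% limit leave fewer tests, and otherwise the cause was not tested. Leaving out a control CD40 mouse leaves 1 mouse in that group, so the spread then comes from the other groups. With the replicate block the counts were 26 for CD40 in B2m-null tumours and 15 for genotype under isotype; no such fit was possible with control CD40, a single pool. Same-numbered lanes of the 2 B2m-null groups correlated at 0.154 to 0.223 in the 6 cell sets, and those of the other pairs of groups at -0.0479 to 0.169; with 2 numbers a group this does not settle whether they are paired. Few counts limit H2-M2 in lymphocytes, and few cells or mice limit all members in melanoma cells, conventional CD4 T cells and, under CD40, dendritic cells.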
